A study of Mus musculus with 7 samples.

Results

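The interferon-induced genes were examined in the immobilized gastrocnemius, the fast calf muscle, from mice without DJ-1 in skeletal muscle and from floxed controls. The 38 genes were chosen by symbol from the 21487 genes of the deposited count table, and all 38 were found. They comprise 7 guanylate-binding proteins (GBPs) and 6 immunity-related GTPases (IRGs), taken as genes of interferon gamma, and 7 Ifit, Isg15, Oas and Mx genes, taken as genes of type I interferon. Another 13 are antiviral genes of no single class and 5 are transcription factors of the STAT and IRF families. The rows were picked by gene name, and the list was drawn up with earlier results of these data known.

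Both groups had the same treatment, immobilization that causes atrophy, so no library came from a free limb. The control group (3 libraries, control 1 to 3) carried floxed Park7, the gene of DJ-1, and is labelled WT. The knockout group (4 libraries, knockout 1 to 4) is labelled as a Park7 knockout of skeletal muscle. The sources used here do not give the Cre driver, the age or the sex. Nor do they say that each library is 1 animal, so p-values measure only the spread between these samples, which may be technical. In whole muscle, fewer cells of a type and less RNA per cell cannot be told apart.

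Interferons are secreted proteins that put cells into an antiviral and antimicrobial state. Type I interferons are made by many cells after sensing foreign nucleic acid and signal through Ifnar1 and Ifnar2 to a complex that holds Stat2 and Irf9 and binds the interferon-stimulated response element (ISRE). Interferon gamma is made mainly by T cells and natural killer cells and signals through Ifngr1 and Ifngr2 to the gamma-activated sequence (GAS) of its target genes. The 2 programmes overlap: type I interferon also induces GBP and IRG genes, and gamma also induces Ifit genes, so the class names describe preference and not exclusive control.

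Promoter sequences are shown because they carry matches to the 2 elements named above. RefSeq windows on GRCm38.p6, from 250 bases before to 50 after a gene's start, were found for 28 of the members (34 windows). None was available for Gbp4, Gbp6, Gbp9, Iigp1, Mx1, Ifi27, Parp14, Rtp4, Usp18 and Zbp1, so the shares of matches do not cover these genes. The ISRE pattern searched was GAAA, any 2 bases and GAAA again, and the GAS pattern TTCNNNGAA, both on either strand. In the stretches below, which all end before the start and are written 5′ to 3′ on the gene's strand, capitals mark every match.
Gbp3, chr3:142559989-142560024, plus strand: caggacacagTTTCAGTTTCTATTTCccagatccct
Gbp7, chr3:142530220-142530302, plus strand: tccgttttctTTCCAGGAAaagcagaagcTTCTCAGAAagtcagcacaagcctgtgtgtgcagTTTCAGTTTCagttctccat
Igtp, chr11:58199501-58199541, plus strand: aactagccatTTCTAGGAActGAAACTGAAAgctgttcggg
Irgm2, chr11:58214892-58214932, plus strand: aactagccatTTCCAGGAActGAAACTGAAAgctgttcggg
Ifit1, chr19:34640775-34640823, plus strand: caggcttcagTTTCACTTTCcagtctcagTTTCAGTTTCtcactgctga
Isg15, chr4:156200865-156200906, minus strand: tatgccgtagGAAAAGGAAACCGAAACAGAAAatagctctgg
Irf1, chr11:53769914-53769942, plus strand: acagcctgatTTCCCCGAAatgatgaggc

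An ISRE match lay in 19 of the 34 member windows, against 3.44% of all 32851 windows, and a GAS match in 11, against 8.30%. Both lay in 7 member windows, against 0.454% of all. Among the GBP and IRG genes, 8 of 9 with a window had an ISRE match and 5 had both kinds. Of the Ifit, Isg15 and Oas genes, 4 of 6 had an ISRE match and 1, Oas1a, had both. Ifit2 had a GAS match and no ISRE match, so the matches did not separate the classes. Gbp3, Irgm1, Isg15, Oas1a and Bst2 hold ISRE matches that overlap each other, and in Bst2 one of them also overlaps a GAS match. The stretches of Igtp and Irgm2 are equal at 40 of 41 bases and differ by T14C (Igtp base first, counted from 1 at the 5′ end). A match is a run of letters and not a measured binding site.

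The libraries held 24458343 to 26389010 counts. Park7 read 229 to 266 counts-per-million (CPM, on library sizes adjusted by the TMM method) in the controls and 34.7 to 41.5 in the knockouts. The 10 muscle fibre markers checked were present in every library, with a summed level of 86691 to 107214 CPM. Of all 13409 genes tested, 895 rose and 1103 fell in the knockout at an adjusted p under 0.05. The rises made up 44.8% of the calls with TMM scaling and 33.2% with upper quartile scaling. The median log2 fold change of all genes was 0.01 and -0.04 under these scalings, and that of the members -1.10 and -1.15.

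Control 1 stood apart from the 6 other libraries in the interferon-induced genes, which touches every comparison between the groups. It had the highest level of all 7 libraries in 37 of the 38 genes, Irf8 being the exception. Of the 36 members with enough counts to be tested, 35 were highest in control 1, against 17.0% of all tested genes. In 30 of them control 1 lay at least 2-fold over the mean of controls 2 and 3, against 2.21% of all tested genes, and in 29 at least 2-fold over the highest other library, against 0.865%. Control 1 was also the library with the fewest counts. With 1 library, these are descriptions and carry no test.

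**Figure D1:**
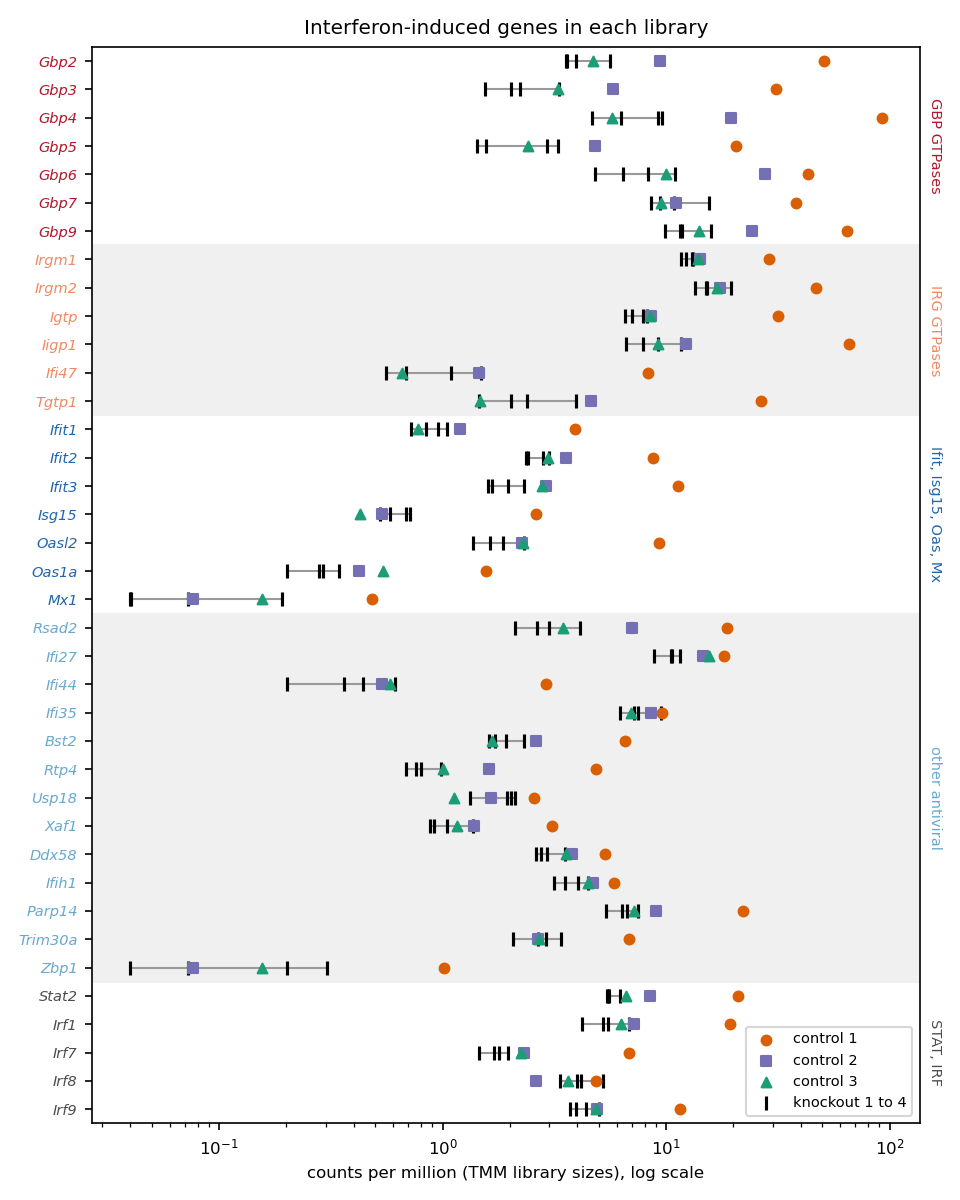
Level of each of the 38 genes in each library, in CPM on a log axis, by class. Orange circles are control 1, purple squares control 2, green triangles control 3, and black ticks joined by a grey line the 4 knockouts. The orange circles lie to the right of all other marks in 37 of 38 rows.

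The listed GBPs, large GTPases that gather on the vacuoles of intracellular microbes, were far higher in control 1. Gbp2 read 51.1, 9.35 and 4.71 CPM in controls 1 to 3, against 3.56, 5.59, 3.94 and 3.59 CPM in knockouts 1 to 4. Control 1 was 7.27-fold over the mean of the other controls, and control 3 lay among the knockouts. Gbp4 read 92.4, 19.6 and 5.72 CPM in the controls and 9.21, 9.63, 4.66 and 6.25 CPM in the knockouts. Here the controls formed a stair, with control 3 below the knockouts 1, 2 and 4. Gbp6 read 43.0, 27.7 and 9.97 CPM in the controls and 8.27, 10.9, 4.82 and 6.41 CPM in the knockouts. In Gbp6 controls 1 and 2 were both high and control 3 lay between knockouts 1 and 2.

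The other 4 GBPs, Gbp3, Gbp5, Gbp7 and Gbp9, ran from 3.37-fold to 6.85-fold in control 1 over the other controls. Gbp5, Gbp7, Gbp3 and Gbp2 lie near each other on chromosome 3 (142493978 to 142638008 in GRCm38), and Gbp9, Gbp4 and Gbp6 on chromosome 5 (105077630 to 105293698). The listed genes of neither cluster moved as a block. Control 1 was 7.27, 6.85 and 5.74-fold for Gbp2, Gbp3 and Gbp5, but 3.72-fold for their neighbour Gbp7. On chromosome 5 it was 7.29-fold for Gbp4, 3.37-fold for Gbp9 and 2.28-fold for Gbp6. The annotations of Gbp4 and Gbp9 overlap on the same strand and reads of Gbp6 were shared with similar genes, so the split between these copies is uncertain. Gbp10, a GBP outside the list that also has shared reads, was not high in control 1. It read 5.83, 8.70 and 3.55 CPM in the controls and 1.57 to 7.95 CPM in the knockouts. Control 1 stood at 0.951-fold the other controls, and the log2 fold change of -0.46 did not pass (edgeR adjusted p = 0.521).

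The IRGs, smaller GTPases that act on the same vacuoles, differed among themselves. Irgm1, a regulatory IRG that restrains the others, read 28.9, 14.2 and 13.9 CPM in the controls and 11.6, 13.1, 12.3 and 13.2 CPM in the knockouts. Igtp, also a regulatory IRG, read 31.7, 8.59 and 8.50 CPM in the controls and 7.91, 7.04, 8.21 and 6.57 CPM in the knockouts. In both genes controls 2 and 3 were nearly equal and every knockout lay just below them. Irgm2, the third regulatory IRG, read 46.8, 17.5 and 16.9 CPM in the controls and 15.3, 19.6, 15.0 and 13.4 CPM in the knockouts, with knockout 2 above controls 2 and 3. Iigp1, an effector IRG, read 66.1, 12.3 and 9.16 CPM in the controls and 9.18, 11.6, 7.89 and 6.61 CPM in the knockouts. Tgtp1, another effector, read 26.5, 4.60 and 1.47 CPM in the controls and 2.39, 3.96, 2.03 and 1.45 CPM in the knockouts. Control 1 stood furthest above the other controls in these effectors and in Ifi47: 8.72-fold for Tgtp1, 7.88-fold for Ifi47 and 6.16-fold for Iigp1, against 3.71-fold for Igtp, 2.72-fold for Irgm2 and 2.06-fold for Irgm1. Igtp and Irgm2 overlap on chromosome 11 (58199556 to 58222782) and, with Tgtp1, have reads shared with similar genes.

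The genes of type I interferon were also higher in control 1, at lower levels. Ifit1, which binds foreign RNA at its cap, read 3.90, 1.19 and 0.773 CPM in the controls and 1.05, 0.723, 0.956 and 0.846 CPM in the knockouts. Ifit3, its partner, read 11.3, 2.91 and 2.78 CPM in the controls and 2.32, 1.67, 1.59 and 1.97 CPM in the knockouts, below every control. Isg15, a ubiquitin-like modifier, read 2.61, 0.537 and 0.425 CPM in the controls and 0.580, 0.685, 0.717 and 0.524 CPM in the knockouts. In Isg15, control 1 was 5.44-fold over the other controls, and control 3 was the lowest library of all. Oasl2, of the oligoadenylate synthetase family, was 4.09-fold and Oas1a, a synthetase of the RNase L activator, 3.26-fold. Ifit2 was 2.68-fold. Mx1, a GTPase that blocks influenza-type viruses, had 12, 2 and 4 counts in the controls and 2, 5, 1 and 1 in the knockouts, too few to be tested.

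Side by side in control 1, the classes overlapped in how far they stood out. The 13 GBP and IRG genes ran from 2.06 to 8.72-fold over the mean of controls 2 and 3, with a median of 5.74. The 6 tested Ifit, Isg15 and Oas genes ran from 2.68 to 5.44-fold, with a median of 3.97. All tested genes had a median of 0.997-fold. Reads of Isg15, Ifit3 and Oas1a were partly shared with similar genes.

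**Figure D2:**
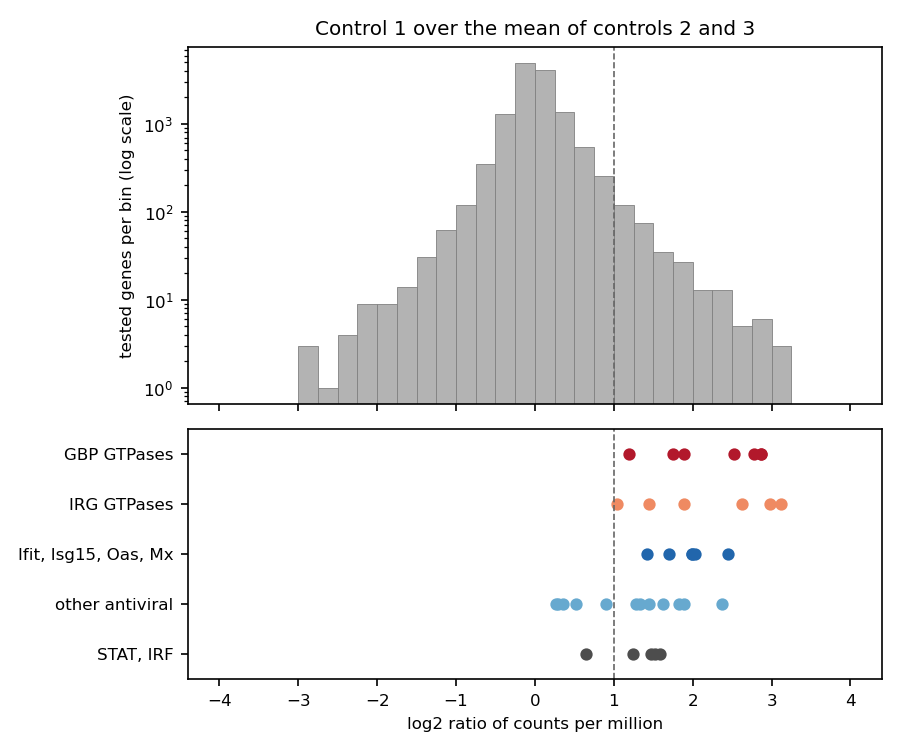
Top, number of tested genes (log scale) by the log2 ratio of CPM in control 1 to the mean of controls 2 and 3. Bottom, the same ratio for each of the 36 tested members by class. The dashed line marks 2-fold, which 30 of 36 members reach and 2.21% of all tested genes do.

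Controls 2 and 3 differed from each other in the gamma class only in part. In 5 of the 13 GBP and IRG genes control 2 was at least 2-fold over control 3: Gbp4 at 3.43-fold, Tgtp1 at 3.13, Gbp6 at 2.78, Ifi47 at 2.22 and Gbp5 at 2.0. None of the 6 tested Ifit, Isg15 and Oas genes reached 2-fold, with a range of 0.780 for Oas1a to 1.54 for Ifit1, and 1.55% of all tested genes did. Among the other members only Rsad2 did, at 2.05-fold. This contrast of 2 libraries was seen after the values and was not tested.

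Per length of gene, the gamma class was more abundant than the type I class in every library. As a class level, the mean over genes of log2 CPM per kb of exon (log values here have a prior count of 2), the GBP and IRG genes stood at 3.58, 1.68 and 0.90 in controls 1 to 3. Their level in knockouts 1 to 4 was 1.03, 1.19, 0.59 and 0.61. The Ifit, Isg15, Oas and Mx genes stood at 0.73, -1.06 and -1.10 in the controls and at -1.27, -1.23, -1.40 and -1.56 in the knockouts. Control 1 stood 2.29 above the mean of the other controls in the gamma class and 1.82 above it in the type I class, on the log2 scale. Control 2 exceeded control 3 by 0.78 in the gamma class and by 0.04 in the type I class.

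The difference between the classes, gamma minus type I, was 2.85, 2.75 and 2.01 on the log2 scale in the controls (mean 2.54 ± 0.46, SD, n = 3). In the knockouts it was 2.29, 2.42, 1.99 and 2.18 (mean 2.22 ± 0.18, SD, n = 4). The groups overlapped, with knockouts 1, 2 and 4 above control 3, and the means differed by -0.31, less than the spread of the controls. As a linear ratio, the gamma class lay 3.98 to 7.21-fold over the type I class in the 7 libraries. With the 13 other antiviral genes counted as type I, the control difference was 1.94.

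**Figure D3:**
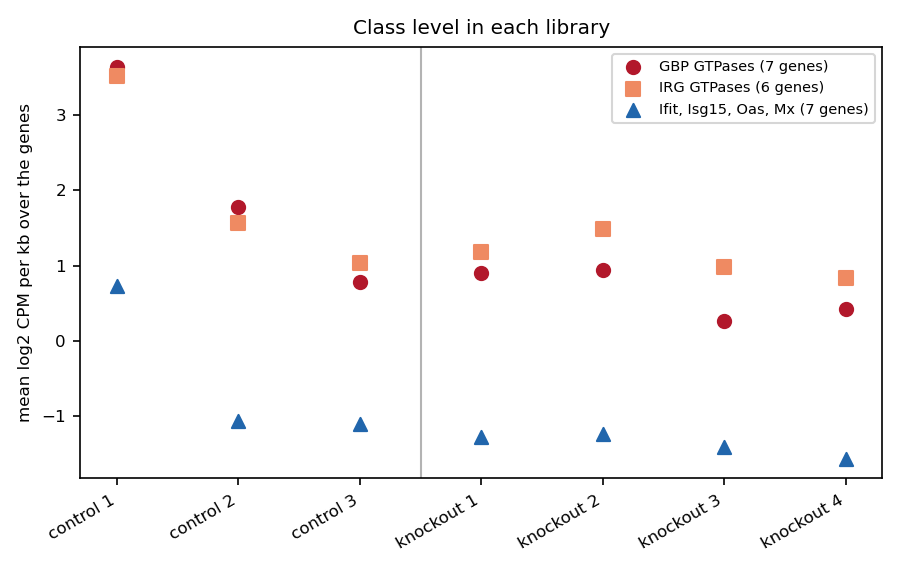
Mean log2 CPM per kb of the 7 GBP, the 6 IRG and the 7 Ifit, Isg15, Oas and Mx genes in each library. All 3 classes are highest in control 1, and control 2 lies above control 3 by 1.0 in the GBP, 0.53 in the IRG and 0.04 in the type I genes.

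Single genes spread widely on the same per-length scale. The highest mean of any member in both groups was that of Ifi27, a small membrane protein of the mitochondria, at 15.7 ± 1.74 CPM per kb over the 3 controls and 10.1 ± 1.08 over the 4 knockouts (SD). Next in the knockouts came Ifi35, an interferon-induced protein of unsettled role, at 5.56 ± 1.02, Irgm1 at 5.44 ± 0.327, Irgm2 at 4.29 ± 0.726 and Igtp at 3.67 ± 0.375. By these SDs over libraries, Ifi35 and Irgm1 did not differ beyond their spread, nor did Irgm2 and Igtp. Within each knockout, however, Irgm2 was at or above Igtp. It read 4.14, 5.32, 4.06 and 3.63 CPM per kb in knockouts 1 to 4, and Igtp 3.91, 3.48, 4.06 and 3.25. The lowest level was that of Mx1, at 0.0253 ± 0.0211 in the knockouts. In the controls Gbp6, Iigp1, Gbp4 and Gbp2 came next, at 10.3 ± 6.34, 9.33 ± 10.2, 8.65 ± 10.3 and 8.63 ± 10.2, and did not differ beyond their spread. The place of Iigp1, Gbp4 and Gbp2 rested on control 1: in controls 2 and 3 they read 3.93 and 2.93, 4.32 and 1.26, and 3.72 and 1.87 CPM per kb, below Irgm1 at 6.17 and 6.02.

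In the comparison of knockout with control, 6 of the 36 tested members fell and 0 rose, where 8.23% of all tested genes fell, 6.67% rose and 14.9% did either. Those that fell were Gbp2, Gbp3, Gbp6, Gbp9, Rsad2 and Ifi27. Without control 1, edgeR called only Ifi27, 1 of 36 members, and 0 rose, where 3.89% of all tested genes fell, 2.23% rose and 6.12% did either. The log2 fold change was below 0 in 34 of the 36 members, against 49.3% of all tested genes, and in 31 of 36 without control 1, against 49.7%. The members' median log2 fold change was -1.10 with all libraries and -0.32 without control 1, beside 0.01 and 0.00 over all tested genes. An unadjusted p under 0.05 in edgeR was reached by 28 of 36 members with all libraries, beside 4262 of 13409 genes, and by 9 of 36 without control 1, beside 3241 of the same 13409 genes. The latter share of members is near that of all genes. DESeq2 called 17 of the 36, all lower, where it called 9.53% of all genes lower, 8.03% higher and 17.6% either way. Without control 1 DESeq2 called 3 members, all lower, where it called 5.99% of all genes lower, 4.66% higher and 10.6% either way. These were Gbp3, Gbp6 and Ifi27 (DESeq2 adjusted p = 0.0480, 0.00844 and 0.0148).

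By class, edgeR called 4 of the 13 GBP and IRG genes lower, all of them GBPs. It called 0 of the 6 tested Ifit, Isg15 and Oas genes, where 8.23% of all tested genes fell. DESeq2 called 5 of the 13, again all GBPs, and 4 of the 6 (Ifit2, Ifit3, Oas1a and Oasl2), beside 9.53% of all genes. The order of the classes thus depends on the tool, and each class holds few genes. The gamma class had a median log2 fold change of -1.82, which became -0.31 without control 1, and the type I class one of -1.23, which became -0.33. Gbp3 had the largest change of any member, from 13.4 ± 15.4 CPM over the 3 controls to 2.27 ± 0.741 over the 4 knockouts (SD). Its log2 fold change was -2.55 (SE 0.691, edgeR adjusted p = 0.0400) and -1.0 without control 1 (SE 0.316, adjusted p = 0.101). Gbp6 fell by 1.82 on the log2 scale (SE 0.432, edgeR adjusted p = 0.0264) and stood at -1.31 without control 1 (SE 0.399, adjusted p = 0.0924). Gbp2 had a log2 fold change of -2.38 (adjusted p = 0.0479) that became -0.76 (0.155), and Gbp9 one of -1.48 (0.0498) that became -0.64 (0.148). With edgeR, each of these 4 calls was also lost without knockout 1, 3 or 4, whereas DESeq2 kept those of Gbp3 and Gbp6 without control 1.

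The IRG genes had a median log2 fold change of -1.43, which became -0.19 without control 1. None passed with edgeR and all libraries, with adjusted p-values from 0.0861 for Iigp1 to 0.148 for Irgm2. Of the type I genes, Ifit3 came nearest to a call with edgeR, at -1.57 (SE 0.484, edgeR adjusted p = 0.0597) and at -0.59 without control 1 (0.127). Isg15 changed sign, from -0.91 to 0.37 (adjusted p = 0.333 and 0.529), as did Gbp7, from -0.82 to 0.10. The signs of these 2 genes rested on control 1.

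**Figure D4:**
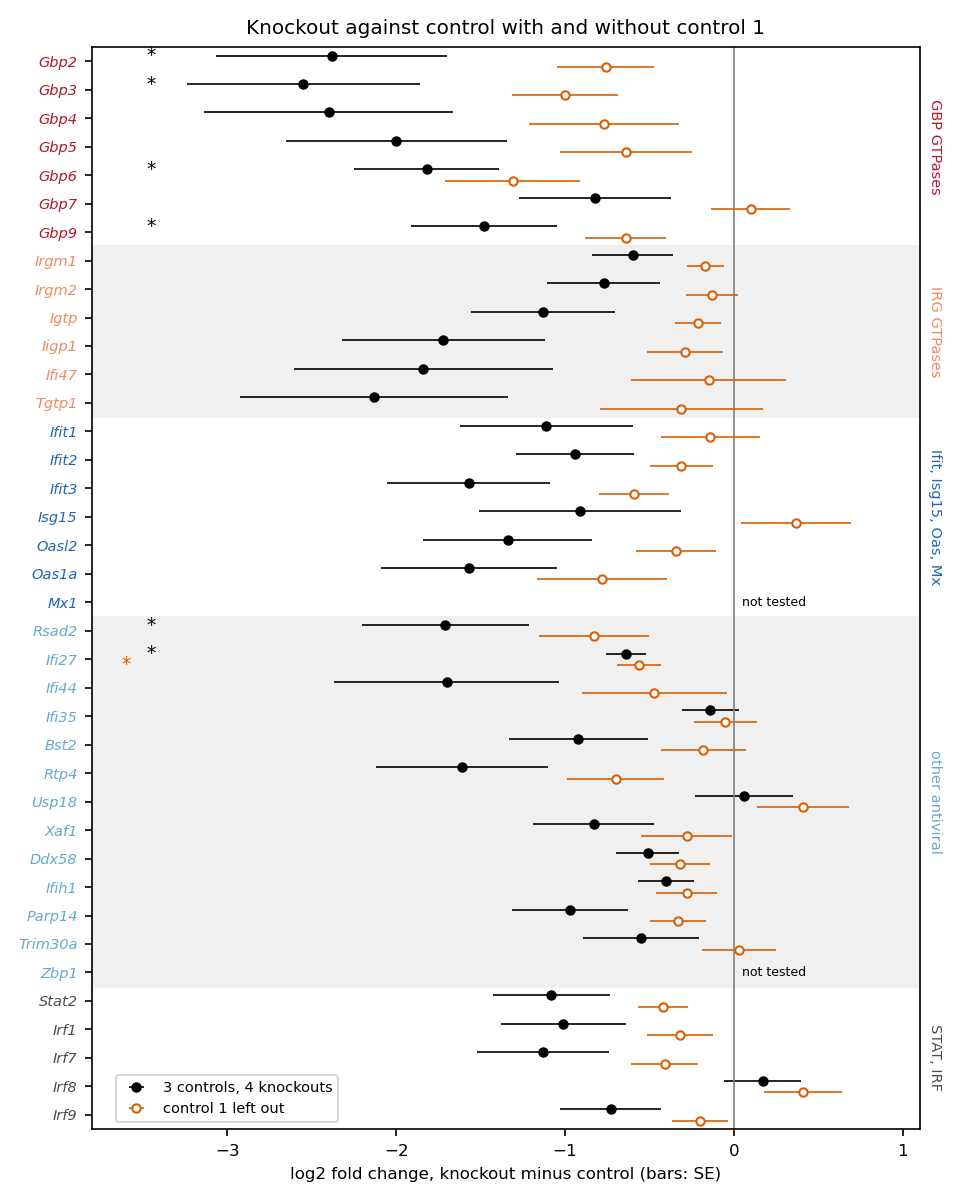
Log2 fold change of each member, knockout minus control, with its standard error, from all 7 libraries (black) and with control 1 left out (orange, open). Asterisks of the same colour mark an edgeR adjusted p under 0.05: 6 genes with all libraries and Ifi27 alone without control 1.

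Ifi27 rested little on control 1. It read 18.1, 14.6 and 15.6 CPM in the controls and 11.5, 10.5, 8.80 and 10.6 CPM in the knockouts. Every knockout lay below every control, and control 1 was only 1.2-fold over the other controls. Its log2 fold change was -0.64 (SE 0.120, edgeR adjusted p = 0.0121), and -0.56 without control 1 (SE 0.129, adjusted p = 0.0459). The adjusted p ran from 0.0157 to 0.0459 with any 1 library left out.

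Rsad2 (viperin), an enzyme that makes an antiviral nucleotide, read 18.7, 7.05 and 3.44 CPM in the controls and 4.10, 2.63, 2.99 and 2.10 CPM in the knockouts. Knockout 1 lay above control 3. It fell by 1.71 on the log2 scale (SE 0.494, edgeR adjusted p = 0.0484), a value of -0.83 without control 1 (adjusted p = 0.165). The sensors of viral RNA Ddx58 (RIG-I) and Ifih1 (MDA5) differed less between controls, with control 1 at 1.44 and 1.28-fold over the others. Ddx58 read 5.31, 3.79 and 3.55 CPM in the controls and 2.61, 3.54, 2.75 and 2.94 CPM in the knockouts, a log2 fold change of -0.51 that did not pass (SE 0.187, adjusted p = 0.100). Ifih1 had a log2 fold change of -0.40 (adjusted p = 0.133). In both genes every knockout lay below every control, but barely. Knockout 2 read 3.54 and control 3 3.55 CPM in Ddx58, from 93 and 92 counts. Knockout 4 read 4.47 and control 3 4.48 CPM in Ifih1.

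The other antiviral members did not pass with edgeR, while DESeq2 called Rtp4, Parp14 and Ifi44 (adjusted p = 0.00980, 0.0224 and 0.0476). Parp14, an ADP-ribosyltransferase, the tether of budding virus Bst2, and Rtp4, Xaf1, Ifi44 and Trim30a were 2.44-fold (Xaf1) to 5.19-fold (Ifi44) higher in control 1 than in the other controls. Their log2 fold changes ran from -1.70 for Ifi44 to -0.55 for Trim30a, whose sign turned without control 1 (0.03). Ifi35, for which control 1 was 1.23-fold over the other controls, had a log2 fold change of -0.14, and -0.05 without control 1. Usp18, the protease that removes Isg15 and restrains the type I receptor, was an exception in direction at 0.06 (SE 0.289, adjusted p = 0.902). It read 2.57, 1.65 and 1.12 CPM in the controls and 2.03, 1.94, 2.11 and 1.33 CPM in the knockouts, which overlap. Zbp1, a sensor of nucleic acids in the Z form, had 25, 2 and 4 counts in the controls and 1 to 8 in the knockouts and was not tested.

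Among the transcription factors, 0 of 5 passed with edgeR and 3 with DESeq2 (Stat2, Irf1 and Irf7, adjusted p = 0.0100, 0.0271 and 0.0263). Of all tested genes, 14.9% passed with edgeR and 17.6% with DESeq2. Stat2, which joins Irf9 in the type I complex, read 21, 8.47 and 6.61 CPM in the controls and 5.44, 6.20, 5.50 and 5.56 CPM in the knockouts. Its log2 fold change was -1.08 (SE 0.344, edgeR adjusted p = 0.0665), and -0.42 without control 1 (adjusted p = 0.134). Irf1, a main relay of the gamma response, read 19.4, 7.17 and 6.30 CPM in the controls and 5.19, 6.81, 4.18 and 5.52 CPM in the knockouts. Irf7, which amplifies type I interferon, read 6.79, 2.30 and 2.24 CPM in the controls and 1.78, 1.45, 1.95 and 1.69 CPM in the knockouts. Irf9 was 2.36-fold in control 1, close to Stat2 at 2.78, Irf1 at 2.88 and Irf7 at 2.99. Irf8, a factor of macrophages and dendritic cells, read 4.86, 2.61 and 3.63 CPM in the controls and 3.34, 5.21, 3.98 and 4.15 CPM in the knockouts, with its highest value in knockout 2. Its log2 fold change of 0.17 did not pass (adjusted p = 0.639).

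All knockouts lay below all controls in 10 of the 36 tested members, against 14.8% of all tested genes. They were Stat2, Irf7, Irgm1, Igtp, Ifit3, Oas1a, Ifi27 and Rtp4 and, by a bare margin, Ddx58 and Ifih1. Control 1 was the lowest control in none of them, so the same 10 stand without it, where the share of all tested genes is 17.7%. Of these 10, edgeR called Ifi27 alone with all libraries, and DESeq2 also Stat2, Irf7, Ifit3, Oas1a and Rtp4. Of the 6 that fell with edgeR, 5 had overlapping groups. The median ratio of controls 2 and 3 to the knockouts was 1.24 over the 36 members and 0.993 over all tested genes.

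Upstream of these genes, the receptors of both interferons differed little. Ifnar1, Ifnar2, Ifngr1 and Ifngr2 stood at log2 fold changes of -0.04, -0.17, -0.00 and -0.04. None passed, with edgeR adjusted p-values from 0.498 to 0.988. Their control 1 levels were 0.893, 1.02, 1.16 and 0.965-fold those of the other controls. The kinases Jak1, Jak2 and Tyk2 stood at 0.35, 0.23 and 0.18 on the same scale and none passed (edgeR adjusted p = 0.107, 0.481 and 0.268). The brake Socs3 stood at 0.08 (adjusted p = 0.895), and Socs1 had 1 to 12 counts a library and was not tested.

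Of the 35 tested pathway genes (ligands, receptors, kinases, IRFs, brakes and sensors), 0 rose with edgeR, beside 6.67% of all tested genes. DESeq2 called the brake Ptpn1 higher (adjusted p = 0.0328, and 0.122 without control 1). Its edgeR log2 fold change of 0.71 did not pass (adjusted p = 0.0955). Those that fell with edgeR included Il10rb and Irf5. The share of pathway genes that fell was near the 8.23% of all tested genes that did. Il10rb, a receptor chain shared with interferon lambda, had a log2 fold change of -0.56 (adjusted p = 0.0288, and 0.0871 without control 1). Irf5, a factor of macrophages, read 5.15, 8.89 and 3.86 CPM in the controls and 1.96, 2.66, 1.59 and 1.41 CPM in the knockouts. It fell by 1.64 on the log2 scale (SE 0.312, edgeR adjusted p = 0.0127), and by 1.74 without control 1 (adjusted p = 0.0310), and part of its reads were shared with other genes. Ifng and Ifnb1, the genes of the interferons themselves, were not found by symbol in the deposited count table and so were not analysed.

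The summed level of the 15 T and natural killer cell markers was 5.27, 3.60 and 5.60 CPM in controls 1 to 3 and 2.47 to 3.30 in the knockouts. With edgeR, 1 of the 2 tested fell. Beside this and the marker lists below, 8.23% of all tested genes fell. Of these 15 markers, 5 were at 0 counts in control 1 (Cd3e, Cd3g, Cd8b1, Lck and Ncr1), 10 in control 2 and in control 3, and 7 to 10 in each knockout, so control 1 had the fewest at 0. The 14 macrophage markers summed to 96.1, 61.4 and 99.5 CPM in the controls and to 43.8 to 68.8 in the knockouts, and 3 of the 13 tested fell, among them Csf1r by 0.94 on the log2 scale (edgeR adjusted p = 0.00452). The 12 endothelial markers summed to 397, 368 and 329 CPM in the controls and to 275 to 318 in the knockouts, and 3 fell, among them Tie1 by 0.47 on the log2 scale (edgeR adjusted p = 0.0162). Control 1 was the highest library in 58.3% of the tested endothelial, 55.6% of the fibroblast and 30.8% of the macrophage markers. It was so in 0 of the 2 tested T and natural killer cell markers and in 17.0% of all tested genes. The 9 fibroblast markers summed to 561, 353 and 761 CPM in the controls and to 249 to 400 in the knockouts, and 3 fell. Control 1 stood at 1.2, 1.14 and 1.14-fold the mean of the other controls in macrophage, endothelial and T and natural killer cell sums, and at 4.20-fold in the GBP and IRG sum. The part of these cells in the difference between knockout and control was not tested.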

How the data were processed

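RNA from 7 gastrocnemius samples was sequenced on a BGIseq500. The authors aligned reads to mm10 with STAR 2.7.10a and quantified genes with RSEM 1.2.28, and used DESeq2 1.3.40, per the submitters' processing notes. The deposited table holds RSEM expected counts per gene, not normalized. Annotation and strand were not stated in the sources used here.

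Counts were rounded and tested in R 4.3.3 with edgeR 4.0.16 (filterByExpr, TMM, quasi-likelihood F test with adjusted deviances, Benjamini-Hochberg over all tested genes). The threshold was an adjusted p of 0.05. The SE of a log2 fold change is its size divided by the root of the F statistic. Gene positions and exon lengths came from GENCODE M21 (GRCm38), promoter sequences from RefSeq. The test was checked on simulated counts. No library was made to stand apart in them, so that check does not cover a library such as control 1. Alternatives were other scalings and filters, DESeq2 1.42.0, the replicate number as a block and leaving out each library. A robust prior, the quasi-likelihood fit of older edgeR versions and DESeq2 without control 1 were added after the data were seen.

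The members and lists were chosen with earlier results of these data known. All members could be named. Of pathway genes, the receptors, kinases, Socs1 and Socs3 were named always and others where called, and 1 gene is not reported here. Of other interferon-induced genes and cell markers, the called genes with the smallest p were named. Gbp10, Cd274, Nlrc5, Cxcl9, Cxcl10, Cxcl11 and Irgq were named after their values were seen.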

Additional observations from a re-analysis of the deposited data

Results flagged for a closer look

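In each of the 38 genes the 4 knockout libraries were checked for 1 that lies far from the other 3. Stat2 was the only one found: knockout 2 read 6.20 CPM and the others 5.44, 5.50 and 5.56, so that the gap took 0.843 of the whole range, over Dixon's 95% limit for 4 samples. Chance alone flags about 1 in 20 such groups. The 3 controls are too few for this check, which therefore does not cover control 1.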

How the results depend on the processing

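No member rose under any fit run, and Ifi27 fell in every one. RLE or upper quartile scaling and no filter called the same 6 members. A mean count of at least 10, or the older quasi-likelihood fit, called 5, without Gbp9. DESeq2 called 17 members, and 3 without control 1 (Gbp3, Gbp6 and Ifi27; gamma median log2 fold change -0.31). The robust prior called 1. With 1 library left out, 1 to 12 members fell, 12 without control 3, 3 without control 2 and 1 without control 1, knockout 1, knockout 3 or knockout 4. The gamma median then ran from -2.21 to -0.31 and the type I median from -1.58 to -0.33, both nearest 0 without control 1. The gamma minus type I difference ran from 2.38 to 2.80 in the controls and its knockout minus control value from -0.58 to -0.16. With the broad type I list the control difference was 1.94. Calls over all genes ran from 258 to 966 higher and 528 to 1091 lower. Sign turned without control 1, by edgeR and DESeq2 alike, for Gbp7 (0.10; range with 1 library left out -1.15 to 0.10), Isg15 (0.37; -1.31 to 0.37) and Trim30a (0.03; -0.78 to 0.03). It turned for Irf8 without control 2 (-0.02, range -0.02 to 0.41) and for Usp18 without control 3 or knockout 3 (-0.18 and -0.00, range -0.18 to 0.41). With the replicate number as a block, 3 members fell (Gbp3, Gbp6 and Ifi27), and 577 genes rose and 696 fell. No control shares the number of knockout 4, so that library adds nothing to the group difference in this fit. The labels do not say that a number pairs samples. Same-numbered samples correlated at 0.0945, 0.134 and 0.0854 in their deviations from the group means, each the highest for that control. For control 3 the value was barely above that with knockout 4, at 0.0809. Mx1 and Zbp1 had too few counts for a test.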

Other observations

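Further interferon-induced genes outside the 38 were listed in the same 2 classes. Of 22 of the gamma class 9 were tested and 1 fell (edgeR; 8.23% of all tested genes fell), Pla2g16, a phospholipase gene, by 0.48 on the log2 scale (edgeR adjusted p = 0.0108, and 0.0289 without control 1). It was not high in control 1, at 0.914-fold the other controls. DESeq2 called 2 of the 9, Pla2g16 and Cd274, where it called 17.6% of all genes either way. Cd274 stood at 7.18-fold the other controls in control 1. Its DESeq2 adjusted p was 0.0282, and 0.173 without control 1, and it did not pass with edgeR (adjusted p = 0.0508). Nlrc5, the activator of MHC class I genes, read 11.4, 2.57 and 0.580 CPM in the controls and 1.12 to 2.02 in the knockouts, and did not pass (adjusted p = 0.150). Cxcl9, a chemokine gene that responds mainly to interferon gamma, had 96, 8 and 9 counts in the controls and 4 to 11 in the knockouts. Cxcl10 had 28, 6 and 1 counts in the controls and 1 to 5 in the knockouts. Both chemokine genes had too few counts for a test, and these 3 genes were singled out after their values were seen.

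Of 41 tested genes of the type I class, 6 fell and 1 rose with edgeR, where 8.23% of all tested genes fell and 6.67% rose. Mndal, of the family that senses DNA, read 7.76, 4.91 and 4.64 CPM in the controls and 2.68, 2.09, 2.79 and 2.54 CPM in the knockouts, without overlap. It fell by 1.19 on the log2 scale (SE 0.209, edgeR adjusted p = 0.00956). Without control 1 it was the only gene of that class that edgeR called (adjusted p = 0.0262). DESeq2 without control 1 also called Ifi205 (adjusted p = 0.00446) and Ifi30 (0.0446), both higher in the knockout. With all libraries Ifi205 had a log2 fold change of 0.80 that did not pass with edgeR (adjusted p = 0.149). Phf11d, Parp12 and Ifit3b fell by 1.12, 0.50 and 1.37 on the log2 scale (adjusted p = 0.0253, 0.0294 and 0.0401). Reads of Mndal, Ifi205, Phf11d and Ifit3b were partly shared with similar genes. Ifi30, a thiol reductase of lysosomes that was listed with the type I genes although it is known for its induction by interferon gamma, rose by 1.02 (adjusted p = 0.0425, and 0.128 without control 1), from 2.59 to 3.45 CPM in the controls to 3.59 to 8.36 CPM in the knockouts.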
